A study of Xiphophorus multilineatus with 4 samples.

Results

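The parvalbumins described here are the transcripts of pvalb1 (ENSXMAT00000014707) and pvalb4 (ENSXMAT00000014891), 2 of the 18872 transcripts counted in the brains of adult male Xiphophorus multilineatus, a live-bearing swordtail fish. They were chosen because their read counts differed between the juvenile environments in these same brains, so that difference is described below and not tested. Entire brains came from 4 males of the Y-II size class, a genetically influenced class of adult body size, bred in the laboratory as F2 descendants of wild-caught females. The HQJE (high quality juvenile environment) males, fish 15 and 11, lived alone from day 14 of age on unlimited Tetramin flakes and brine shrimp. The LQJE (low quality juvenile environment) males, fish 17 and 18, grew up in group tanks at more than 6 fish per liter with Tetramin once a day. Food and density therefore cannot be told apart. All 4 males received the same high quality adult diet, and neither labels nor methods state their age. The sample labels spell the groups HJQE and LJQE.

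Parvalbumins are small proteins with EF hands, helix-loop-helix folds that bind calcium, and they take up calcium quickly after a rise in the cell. Fishes carry several parvalbumin genes, and the proteins are very abundant in fast skeletal muscle, where calcium uptake speeds relaxation. In the brain of mammals parvalbumin marks fast-spiking inhibitory interneurons and Purkinje cells of the cerebellum, and in zebrafish pvalb7 marks Purkinje cells. The name pvalb1 is marked as 1 of many in the annotation, so reads of related copies could be shared with it, and the same holds for any near-identical copy of pvalb4. The handling of reads that match more than one transcript is unstated in the sources used here.

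Libraries held between 14260762 counts in LQJE fish 17 and 25531496 counts in LQJE fish 18. LQJE fish 17 stood apart from the other brains. Over the 500 transcripts that differed most in each pair, the root mean square log2 difference was between 2.64 and 3.02 in the 3 pairs with fish 17. It was between 1.99 and 2.06 in the other pairs. The brains did not group by juvenile environment in this measure. The LQJE brains were the most distant pair (3.02). The HQJE brains (2.06) were farther apart than LQJE fish 18 was from HQJE fish 15 (2.04) or HQJE fish 11 (1.99). No pair was 1 library sequenced again, since counts in each pair departed from sampling noise (chi-square over degrees of freedom of at least 14.9). Marker genes of neurons and glia fixed for this comparison are not paired with transcripts here, so the labelled tissue was not checked with them. As a substitute chosen after the values were seen, the calcium channel gene cacna1ab, the synaptic vesicle gene syt7a and the presynaptic scaffold gene bsnb were read in all 4 brains, with at least 12 counts each. These genes come from the supplement of the study, which lists genes that differed between the groups in these brains. They are thus no independent check of the tissue. Their level was highest in LQJE fish 17. It was 86.0 CPM for cacna1ab there, against at most 28.2 CPM in the other brains, 5.36 against 0.546 to 0.677 CPM for syt7a and 12.8 against 0.598 to 0.819 CPM for bsnb, and the part of this in the parvalbumin values was not tested.

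Both parvalbumins were read less often in the HQJE brains than in the LQJE brains, and no HQJE brain reached the level of an LQJE brain. The difference of pvalb1 was 2.86-fold and even over the brains, while that of pvalb4 was 8.39-fold and uneven. The pvalb1 transcript had 134 and 140 reads in the HQJE brains (fish 15 and 11, the order used throughout) and 250 and 437 reads in the LQJE brains (fish 17 and 18). Expressed as CPM, reads per 1000000 reads of the library after TMM scaling, these were 6.09, 6.33, 18.1 and 17.4. The brains thus formed a low and a high pair with almost no spread inside either. The pvalb4 transcript had 8 and 29 reads in the HQJE brains and 86 and 196 reads in the LQJE brains, which correspond to 0.364, 1.31, 6.23 and 7.81 CPM. Here the LQJE brains were close to each other, and HQJE fish 15 was well below HQJE fish 11. Since whole brains were sequenced, fewer cells that carry a transcript and less of it in each cell cannot be told apart.

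**Figure D1:**
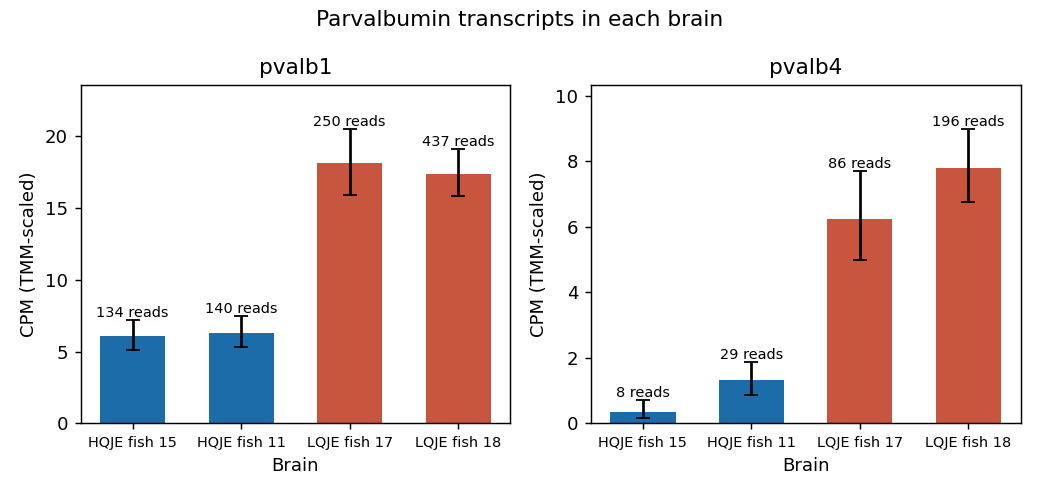
Level of pvalb1 (left) and pvalb4 (right) in each brain, in CPM on a linear axis from 0, with HQJE brains in blue, LQJE brains in red and the read count above each bar. Error bars are exact 95% Poisson intervals of the count and cover counting error only. Both LQJE bars stand above both HQJE bars in each panel, and for pvalb4 the bar of HQJE fish 15 rests on 8 reads.

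Expression of pvalb1 was 6.21 ± 0.164 CPM (SD, n = 2) under HQJE and 17.8 ± 0.503 CPM (SD, n = 2) under LQJE, so that the fitted log2 ratio of HQJE to LQJE, here called the log2 fold change, was -1.51. Expression of pvalb4 was 0.837 ± 0.669 CPM (SD, n = 2) under HQJE and 7.02 ± 1.11 CPM (SD, n = 2) under LQJE, at a log2 fold change of -3.06. Both were past the threshold of the study by the quasi-likelihood test of edgeR (unadjusted p of at most 0.01 with a change of at least 2-fold). Of the 18474 tested transcripts, 0.141% passed it with lower expression under HQJE. In both the groups did not overlap, as was so in this direction for 21.1% of the tested transcripts. Nothing is read from these counts, because the same contrast chose the members. Without LQJE fish 18 pvalb4 was no longer past the threshold, at a log2 fold change of -2.86, and it was at -3.22 without LQJE fish 17. Leaving out HQJE fish 11 gave -4.25 for pvalb4, and leaving out HQJE fish 15 gave -2.42. For pvalb1 the value without LQJE fish 17 was -1.49. Each of these fits sets 1 brain against 2, so the spread comes from the remaining pair, and the lone brain is assumed to vary like it.

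Comparing single brains showed how far the size of each difference depends on the brains taken. For pvalb1 the 4 ratios of an LQJE brain to an HQJE brain lay between 2.75 and 2.97, and their exact 95% intervals, for counting error only, spanned 2.27 to 3.70. For pvalb4 the ratio to HQJE fish 11 was 4.76 in LQJE fish 17 (95% interval 3.09 to 7.52) and 5.96 in LQJE fish 18 (4.02 to 9.13). The ratio to HQJE fish 15 was 17.1 in LQJE fish 17 (8.32 to 40.9) and 21.5 in LQJE fish 18 (10.7 to 50.4). The size of the pvalb4 difference therefore depended mostly on which HQJE brain was used. Inside the groups, pvalb1 differed 1.04-fold between the LQJE brains (fish 17 over fish 18, 95% interval 0.887 to 1.22) and 1.04-fold between the HQJE brains (fish 11 over fish 15, 0.813 to 1.33). Neither pair differed beyond counting error. For pvalb4 the LQJE brains differed 1.25-fold (fish 18 over fish 17, 0.967 to 1.63), which was also inside counting error, but HQJE fish 11 was 3.60-fold above HQJE fish 15 (1.61 to 9.12). That spread between brains was larger than counting error alone.

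These spreads were set beside those of other transcripts of like level, taken as a mean CPM within 2-fold of the member. Among 4456 transcripts as abundant as pvalb1, 2.45% had differences no larger than those of pvalb1 in both groups. In the HQJE brains taken alone this was so for 15.9%, and in the LQJE brains taken alone for 15.5%. The log2 difference between the HQJE brains was 0.053 in pvalb1, against a median of 0.19, and that between the LQJE brains was 0.057, against a median of 0.20. Among 3742 transcripts as abundant as pvalb4, 98.9% had a smaller or equal difference between the HQJE brains, where pvalb4 differed by 1.61 on the log2 scale and the median was 0.29. Between the LQJE brains pvalb4 differed by 0.32, near the median of 0.33. Evenness like that of pvalb1 in both groups at once was therefore uncommon among transcripts of like mean, and in either group alone it was less so. The match was on the mean of all brains, which for pvalb1 lies above its HQJE mean of 6.21 CPM. For pvalb4 the mean of all brains lies well above its HQJE mean of 0.837 CPM. Its 8 and 29 reads there carry more counting error than a transcript at the matched mean would. How uncommon its HQJE difference was at its HQJE level is therefore not settled. A small spread favours passing the threshold, so the even pattern of pvalb1 is in part what chose it.

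In mean CPM pvalb1 was above 53.1% of the tested transcripts and pvalb4 above 35.1%. These ranks are by reads and not per length, as no transcript lengths were used here, so the levels of both genes are not compared with each other. Among 15087 transcripts averaging 1 CPM or more, 133 had a log2 fold change as low as that of pvalb1 or lower, and in 33 of these the groups did not overlap. For pvalb4 these numbers were 14 and 5, both counts including pvalb4 itself. In this direction the groups did not overlap in 21.1% of all tested transcripts. The same contrast chose both genes, so a low log2 fold change was given beforehand and these counts only describe it.

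**Figure D2:**
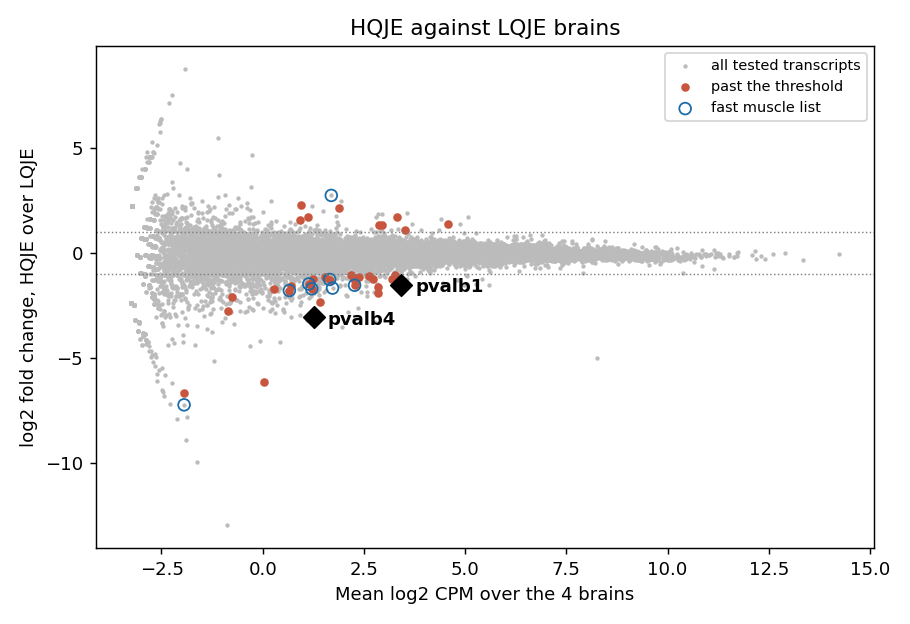
Log2 ratio of HQJE to LQJE against mean log2 CPM over the 4 brains for the 18474 tested transcripts (grey), those past the threshold (red), the fast muscle list (blue circles) and the parvalbumins (black diamonds). Dotted lines mark a 2-fold change. pvalb1 lies at -1.51 and pvalb4 at -3.06.

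The balance between both genes follows from their differences between the groups, 2.86-fold in pvalb1 and 8.39-fold in pvalb4, and is no separate result. Reads on pvalb4 as a share of all parvalbumin reads need no scaling to library size, and a length difference between the genes affects every brain alike. The share was 5.63% (exact 95% interval 2.46 to 10.8) and 17.2% (11.8 to 23.7) in the HQJE brains, and 25.6% (21.0 to 30.6) and 31.0% (27.4 to 34.7) in the LQJE brains. Each HQJE brain had a smaller share than each LQJE brain. The intervals of HQJE fish 11 and LQJE fish 17 overlapped, and those of both LQJE brains overlapped as well. The share rests on the reads that chose the members and was not tested.

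Parvalbumins are also muscle proteins, so the fast muscle genes that the supplement of the study pairs with transcripts were examined in the same brains. They are 8 transcripts. Of these, 7 encode contractile proteins, namely the fast troponins tnnt3a, tnnc2 and 2 copies named tnni2a.4, the myosin light chains myl1 and mylpfa, and the myosin heavy chain MYH13. The remaining one, smyd1a, encodes a methyltransferase of muscle. The supplement lists genes that passed the threshold of the study in these same brains. Their direction, their number past the threshold, their lack of overlap and their median are therefore not independent evidence. The shares over all transcripts are given as background only. By the quasi-likelihood test of edgeR 5 of the 8 passed the threshold with lower expression under HQJE, 0 passed with higher expression and 3 did not pass. Of all tested transcripts 0.141% passed with lower and 0.0487% with higher expression. The groups did not overlap in 7 transcripts with the lower level under HQJE and in 1 with the higher level, against 21.1% and 18.8% of all tested transcripts. The median log2 fold change of the 8 was -1.60, also with mylpfa set to its bound, against -0.019 over all tested transcripts.

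The fast troponin T transcript tnnt3a had 63 and 59 reads under HQJE and 112 and 199 reads under LQJE, or 2.87, 2.67, 8.12 and 7.93 CPM. Like those of pvalb1, its brains formed a low and a high pair with little spread inside either. The log2 fold change was -1.53 (edgeR quasi-likelihood, Benjamini-Hochberg adjusted p = 0.622, shared by all 5 passing transcripts). The calcium-binding troponin tnnc2 had 0.819, 0.768, 2.32 and 3.15 CPM in the same order of brains, and the light chain myl1 had 2.14, 1.81, 4.35 and 5.10 CPM. Both were past the threshold, at log2 fold changes of -1.79 and -1.26. The troponin I copies, which can share reads, were at log2 fold changes of -1.47 and -1.70 and passed as well. The light chain mylpfa had no reads in either HQJE brain, 3 in LQJE fish 17 and 37 in LQJE fish 18. Taking 3 counts as the floor for both HQJE libraries together, or 0.068 CPM, its mean level was at least 12.4-fold lower under HQJE (edgeR quasi-likelihood, unadjusted p = 0.0122). This bound allows for counting error under HQJE only and takes the LQJE mean of 0.846 ± 0.889 CPM (SD, n = 2) as measured. LQJE fish 18 carried it. The 3 reads of LQJE fish 17 equal the floor count, and their exact 95% interval, 0.0448 to 0.636 CPM, reaches below 0.068 CPM. For LQJE fish 17 alone no bound is therefore given. MYH13 had 3.002, 1.04, 9.64 and 3.39 CPM, so that HQJE fish 15 was close to LQJE fish 18 (edgeR quasi-likelihood, unadjusted p = 0.0516). The exception in direction was smyd1a, at 2.46 and 17.2 CPM in HQJE fish 15 and 11 and 1.52 and 1.43 CPM in LQJE fish 17 and 18 (edgeR quasi-likelihood, unadjusted p = 0.0241). Single brains changed these calls and sizes. In each fit of 1 brain against 2, with the same limit as above, fewer of the list passed than with all brains. More of all tested transcripts passed in each of these fits. The log2 fold change of tnnt3a stayed between -1.59 and -1.48. That of MYH13 was -0.746 without LQJE fish 17 and -2.63 without HQJE fish 15. For smyd1a it was 3.54 without HQJE fish 15 and 0.732 without HQJE fish 11.

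**Figure D3:**
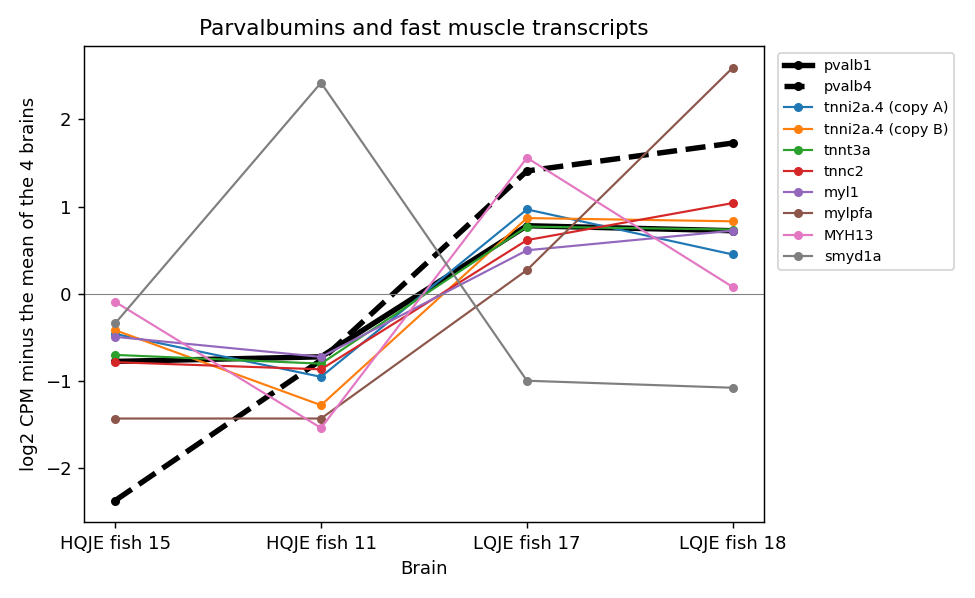
Log2 CPM in each brain minus the mean of the 4 brains, for pvalb1 (solid black), pvalb4 (dashed black) and the 8 fast muscle transcripts (colours); lines join the values of a transcript and carry no order. The lines of pvalb1 and tnnt3a nearly coincide, pvalb4 drops furthest in HQJE fish 15, and smyd1a alone is high in HQJE fish 11.

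The summed level of the 8 transcripts was 14.4 and 25.4 CPM in HQJE fish 15 and 11 and 34.5 and 29.4 CPM in LQJE fish 17 and 18. Much of the sum in HQJE fish 11 was smyd1a. The 7 contractile transcripts alone summed to 12.0 and 8.18 CPM in the HQJE brains and 33.0 and 28.0 CPM in the LQJE brains, a 3.03-fold difference of the means. This sum was formed after the values were seen. All 7 contractile transcripts had a negative log2 fold change in each fit that leaves out a brain. The groups did not overlap in any of the 7, so leaving out a brain could hardly change the sign. In HQJE fish 15 there were 51.0 reads of pvalb1 per 100 contractile reads (exact 95% interval 41.1 to 63.0), and in HQJE fish 11 there were 77.3 (61.6 to 97.0). In LQJE fish 17 the number was 54.9 (46.9 to 64.3) and in LQJE fish 18 it was 62.3 (55.1 to 70.2). The groups overlapped in this ratio. Over all 8 transcripts of the list they did not, with 42.3 and 24.9 reads of pvalb1 per 100 under HQJE, below the 52.5 and 59.2 under LQJE. In HQJE fish 11 that sum holds 381 reads of smyd1a. For pvalb4 there were 3.04 (95% interval 1.30 to 6.08) and 16.0 (10.4 to 23.8) reads per 100 contractile reads in the HQJE brains, and 18.9 (14.8 to 23.8) and 27.9 (23.7 to 32.8) in the LQJE brains. In this ratio HQJE fish 15 was below the other brains beyond counting error, while HQJE fish 11 and LQJE fish 17 were not separated. Over all 8 transcripts pvalb4 was at 2.52 and 5.16 under HQJE, below its values of 18.1 and 26.6 under LQJE. The part of muscle transcripts in the parvalbumin differences was not tested.

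**Figure D4:**
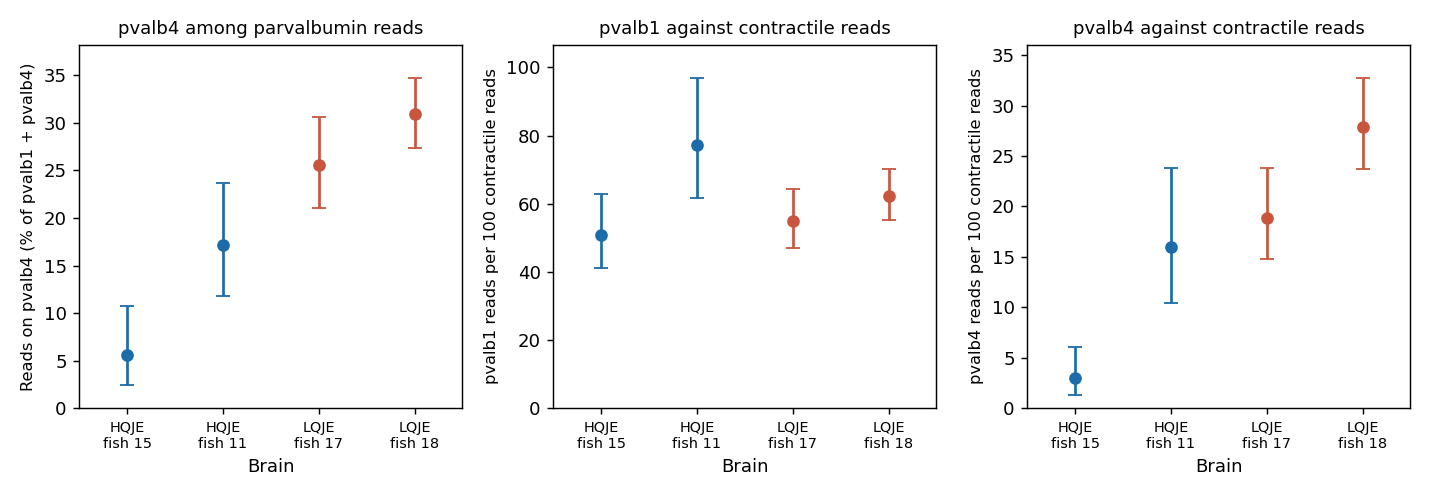
Reads on pvalb4 as a percentage of all parvalbumin reads (left), and reads of pvalb1 (middle) and pvalb4 (right) per 100 reads of the 7 contractile transcripts, in HQJE (blue) and LQJE (red) brains. Points are single brains and bars are exact 95% intervals for counting error only. The ratio of pvalb1 to contractile reads overlaps between the groups at 51.0 to 77.3, while pvalb4 is lowest in HQJE fish 15 in both of its panels.

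Likeness of pattern was measured as the root mean square distance between transcripts in log2 CPM over the 4 brains, each centred on its own mean, among transcripts averaging 1 CPM or more. With 4 brains this is a description, and transcripts that differ between the groups by a like amount lie close by construction. Of 15086 transcripts, the one nearest to pvalb1 was tnnt3a, at a distance of 0.055, both being chosen on these brains. The next was ENSXMAT00000006913, which has no name here, at 0.15, with 1.41 and 1.49 CPM in HQJE fish 15 and 11 and 3.70 and 3.27 CPM in LQJE fish 17 and 18. The gene gig2j, of a family of virus-induced genes of fishes, followed at 0.16, and tk1, a thymidine kinase that makes precursors for DNA synthesis, was the fifth at 0.17 after another transcript with no name. Other muscle transcripts near pvalb1 were tnnc2 in place 8, myl1 in place 9 and the tnni2a.4 copies in places 18 and 45, whereas MYH13 was in place 5728 and smyd1a in place 15059. The mean of mylpfa was below 1 CPM, and it was not ranked.

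No transcript followed pvalb4 as closely. The nearest was agrp, which encodes the appetite-stimulating Agouti-related protein of the hypothalamus, at a distance of 0.62, with 0.637 and 1.81 CPM in HQJE fish 15 and 11 and 8.34 and 4.10 CPM in LQJE fish 17 and 18. Like pvalb4, agrp was lowest in HQJE fish 15, but its highest brain was LQJE fish 17 and not LQJE fish 18. The next was ENSXMAT00000006873 at 0.83, followed by gig2j at 0.87, another transcript with no name at 0.87 and zgc:63489, which encodes a zinc finger protein of the BTB family, at 0.91. In this order tnnc2 was in place 9, pvalb1 in place 10 and tnnt3a in place 15. Seen from pvalb1, pvalb4 was only in place 14050, as its difference between the groups was larger and its HQJE brains were less even.

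Of the retina and pineal markers listed for this comparison, saga, an arrestin of photoreceptors, and tph1a, an enzyme of serotonin synthesis in the pineal organ, are paired with transcripts here. Both come from the supplement, whose genes were chosen on these brains. They had the opposite direction to the parvalbumins, and neither passed the threshold (edgeR quasi-likelihood, unadjusted p of 0.0624 and 0.0221). Without HQJE fish 15 the log2 fold change was 0.019 for saga and 0.575 for tph1a, so the direction of saga rested on that brain. HQJE fish 15, where pvalb4 was lowest, had the most of both. The saga transcript had 11.4 and 1.67 CPM in HQJE fish 15 and 11 and 1.67 and 1.63 CPM in LQJE fish 17 and 18, and tph1a had 61.4, 19.43, 14.6 and 11.6 CPM in the same order. The part of these tissues in the parvalbumin values was not tested.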

How the data were processed

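Each library holds RNA of an entire brain of 1 fish. Before alignment the authors removed adaptors and low-quality sequence. Bowtie2 placed the reads on X. multilineatus transcripts that carry the identifiers of their X. maculatus best hits, and the deposited values are raw counts of reads for each transcript, with no normalization. How pairs, strands and multiple matches were handled is unstated in the sources used here. Sample titles gave the groups. Of the transcripts, 398 without reads were dropped and 18474 were tested for HQJE against LQJE by the quasi-likelihood test of edgeR 4.0.16 under R 4.3.3 (limma 3.58.1) after TMM scaling. The threshold followed the paper (unadjusted p of at most 0.01, absolute log2 fold change of 1 or more). In edgeR, Benjamini-Hochberg adjustment covered all tested transcripts. The test was first tried on simulated counts. CPM values are those of edgeR. The floor for a group without reads was 3 counts over its libraries together, which is 0.068 CPM for HQJE. Reads are not independent molecules, so every interval and floor covers counting error alone. Counts of 134 to 437 (pvalb1) and 8 to 196 (pvalb4) set the precision. With 2 brains in each group an exact permutation test cannot go below a two-sided p of 0.333.

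The members and lists were chosen with earlier results of these data known. Named genes are the members, the fast muscle list, the retina and pineal genes with a name and the 5 transcripts nearest to each member; the neuronal genes and the contractile sum were added after values were seen. Symbols come from the supplementary table alone, which names 97 of its 131 transcripts. The other 6 marker lists (slow and cardiac muscle, inhibitory neurons, fast-spiking and Purkinje cells, calcium buffers, neurons and glia, red blood cells) and further parvalbumins are not paired with transcripts there and were not analysed here. Nearest transcripts used log2 CPM with a prior count of 2. Alternatives were the edgeR exact and likelihood ratio tests, library sizes without TMM, DESeq2 1.42.0 and its size factors within edgeR, the filterByExpr filter, an adjusted p threshold of 0.05, and fits leaving out 1 brain. No sequence is shown, as none was used here.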

Additional observations from a re-analysis of the deposited data

How the results depend on the processing

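For both parvalbumins no HQJE brain reached the level of an LQJE brain. Leaving out a brain or changing the test could therefore hardly change the direction. The log2 fold changes of both parvalbumins stayed negative under every alternative run. That of pvalb1 was between -1.54 and -1.49 with each brain left out and -1.44 with no TMM scaling, and that of pvalb4 was between -4.25 and -2.42 with each brain left out, lowest without HQJE fish 11. The number of transcripts past the threshold was 35 in edgeR's quasi-likelihood test, 75 in the edgeR exact test, 121 in the edgeR likelihood ratio test, 53 in DESeq2 and between 56 and 348 with each brain left out. Transcripts with an adjusted p of 0.05 or less were counted with no limit on the fold change. Their number was 0 in edgeR's quasi-likelihood test, where 1403 had an unadjusted p of 0.05 or less. It was 28 in the exact test and 42 in the likelihood ratio test. DESeq2 gave 79, but it left the adjusted p of some transcripts blank, among them tnnt3a. Its number is therefore not directly comparable with those of edgeR. Of the transcripts past the threshold 74.3% were lower in HQJE fish, and 52.5% with no TMM scaling. The share of 74.3% depended on single brains. It was larger without LQJE fish 18 and smaller without any of the other brains. Without HQJE fish 15 most transcripts past the threshold were higher in HQJE fish. The fast muscle list had 5 of 8 transcripts over the threshold by quasi-likelihood, 7 in the exact test, 7 in the likelihood ratio test, 6 in DESeq2 and between 1 and 3 with each brain left out. At an adjusted p of 0.05 or less it had 0 in the quasi-likelihood test, 1 in the exact test (tnnt3a) and 2 in the likelihood ratio test (tnnt3a and mylpfa). Of the 2 retina and pineal genes 1 was past the threshold in the exact test and 1 in the likelihood ratio test, and between 0 and 2 were with each brain left out. Where a value moved, the cause was not tested. At least 4 of the 5 transcripts nearest to each parvalbumin were shared with another prior count or level filter. No paired analysis was possible because the fish numbers in the labels are not shared between the groups.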
